A study of Mus musculus with 6 samples.

Results

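The miR-106b-25 cluster was followed in exosomes, small vesicles that cells release, from the supernatants of mouse bone marrow-derived macrophages. Its members were taken as every mature arm of the miR-106b, miR-93 and miR-25 hairpins with a row in the count table, which gave 6 of 707 mature miRNA names: mmu-miR-25-3p, mmu-miR-25-5p, mmu-miR-93-5p, mmu-miR-93-3p, mmu-miR-106b-5p and mmu-miR-106b-3p, written here without the mouse prefix. The study sequenced small RNA of 3 Roquin-1 san:san samples and 3 wild-type (WT) samples, all on the C57BL/6 strain, and the genotype is the only difference between the groups that the labels name. Roquin-1 recognises stem-loops of certain transcripts and speeds up their degradation, and san stands for sanroque, a point mutation in the gene for it. The labels name no stimulus, age or treatment of the macrophages. They also leave unsaid whether the replicates are separate mice, separate cultures or pools, so the p-values below measure a spread between samples that could be technical.

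A hairpin precursor of a miRNA is cut into a duplex of a 5p and a 3p arm, of which one is usually kept as the guide that pairs with messenger RNAs and the other, the passenger, is mostly degraded. The miR-106b-25 cluster is transcribed with its host gene Mcm7, which encodes a subunit of the replicative helicase, and is a paralog of the miR-17-92 and miR-106a-363 clusters. Its guides are known to restrain cell-cycle inhibitors such as p21 and the pro-apoptotic protein Bim.

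In the GRCm38.p6 build the hairpins lie on the minus strand of chromosome 5, at chr5:138165737-138165818 for Mir106b, chr5:138165523-138165610 for Mir93 and chr5:138165321-138165404 for Mir25. They span 498 bases, all within intron 13 of the 14 introns of the Mcm7-201 transcript in GENCODE M21. Mir93 and Mir25 also fall in the annotated exon of a retained-intron transcript, Mcm7-202. The authors' reads were placed on mm9, so these positions locate the hairpins and not the reads. The RefSeq hairpins are shown to place the arms that the counts below compare, with both mature arms in capitals, the 5p arm before the 3p arm, 5′ to 3′.
Mir106b: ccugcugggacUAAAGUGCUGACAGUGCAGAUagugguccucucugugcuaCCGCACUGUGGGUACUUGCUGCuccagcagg
Mir93: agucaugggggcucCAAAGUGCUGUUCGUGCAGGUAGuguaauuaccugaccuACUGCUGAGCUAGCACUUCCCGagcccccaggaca
Mir25: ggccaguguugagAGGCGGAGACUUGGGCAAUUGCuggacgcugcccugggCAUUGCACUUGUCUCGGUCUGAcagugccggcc

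The mature arms are given next because the guides belong to different seed families, with bases 2 to 8, the seed, in capitals.
miR-25-3p: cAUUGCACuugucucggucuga
miR-25-5p: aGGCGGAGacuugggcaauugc
miR-93-5p: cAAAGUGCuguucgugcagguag
miR-93-3p: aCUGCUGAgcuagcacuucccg
miR-106b-5p: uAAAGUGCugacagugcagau
miR-106b-3p: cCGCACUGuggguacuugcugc
miR-93-5p and miR-106b-5p share the seed AAAGUGC and are identical at 16 of 21 positions counted from the first base. miR-25-3p has another seed, AUUGCAC. The seeds of miR-25-5p, miR-93-3p and miR-106b-3p were each carried by 1 name among the 573 of 707 names in the count table that matched the RefSeq sequences.

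The san:san libraries held between 126098 and 185901 miRNA counts and the WT libraries between 12447 and 28884. A single count was worth 6.31 to 10.2 TMM-scaled CPM (counts per 1e6 of an effective library size) in san:san and 27.8 to 69.5 CPM in WT. The libraries were checked against markers of macrophages and of other cells. The 6 macrophage and myeloid miRNAs, which include miR-223-3p, miR-142a-3p and miR-155-5p, were all detected in both genotypes, and together they made up 9.20% to 10.9% of san:san counts and 4.82% to 5.62% of WT counts.

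miR-25-3p, a guide of the miR-25 and miR-92a family, was the most abundant miRNA of every library. It had 30924, 28214 and 25068 counts in the san:san libraries and 1660, 3673 and 2903 in the WT libraries. These were 195000, 212263 and 256769 CPM in san:san, against 115435, 101933 and 105145 CPM in WT, so every san:san library lay above every WT library. As a part of all miRNA counts it took 18% ± 1.67 in san:san and 13.1% ± 0.360 in WT (SD, n = 3 each). The edgeR quasi-likelihood test across all 254 tested miRNAs gave a log2 fold change of 1.04 ± 0.19 (SE) with a Benjamini-Hochberg adjusted p = 2.41e-04, and with total counts 0.46 (adjusted p = 0.0148). In such bulk samples more vesicles or cells of a kind and more of the miRNA in each cannot be told apart.

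miR-93-5p, a guide of the miR-17 family, was also higher in san:san. It had 7688, 6615 and 5695 counts in san:san and 121, 648 and 659 in WT, which were 48479, 49767 and 58333 CPM against 8414, 17983 and 23869 CPM. The groups did not overlap, and WT replicate 1, the shallowest library with 12447 counts, stood far below the other WT libraries. The log2 fold change was 1.63 ± 0.30 (edgeR adjusted p = 2.86e-04), a 3.09-fold rise, and 1.21 ± 0.18 without WT replicate 1 (adjusted p = 3.43e-06). With total counts it was 1.02 (adjusted p = 0.00898). The miRNA ranked 7th in each san:san library, and in WT it ranked 25, 9 and 6 in replicates 1 to 3.

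miR-106b-3p, the arm opposite the guide named for the cluster, was higher in san:san as well. It had 585, 514 and 477 counts in san:san and 14, 54 and 26 in WT, or 3689, 3867 and 4886 CPM against 974, 1499 and 942 CPM. The lowest san:san library was thus above the highest WT library. The log2 fold change was 1.82 ± 0.24 (edgeR adjusted p = 2.20e-05), a 3.52-fold rise, and 1.22 with total counts (adjusted p = 6.70e-04). Its counterpart miR-106b-5p had 39, 55 and 22 counts in san:san and 1, 10 and 10 in WT, and did not pass the test. Its levels of 246, 414 and 225 CPM in san:san overlapped with 69.5, 278 and 362 CPM in WT (log2 0.17 ± 0.47, edgeR adjusted p = 0.760). Its fitted value turned negative with RLE factors (-0.076) and total counts (-0.42), and stayed positive with TMMwsp (0.068).

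miR-25-5p, the passenger of the most abundant miRNA, went the other way. It had 9, 4 and 5 counts in san:san and 5, 10 and 8 counts in WT, so its raw number stayed between 4 and 10 while the library totals spanned 12447 to 185901. In scaled terms it was at 56.8, 30.1 and 51.2 CPM in san:san and at 348, 278 and 290 CPM in WT, with every WT library above every san:san library. The log2 fold change was -2.64 ± 0.46 (edgeR adjusted p = 2.01e-04), which is 6.25-fold lower in san:san. The arm passed the filter on low counts through the 3 WT libraries and through 0 san:san libraries, and having passed in that way it had to differ. Its p-value therefore supports nothing. Pooled over libraries, its 18 counts in san:san and 23 in WT gave a san:san over WT ratio of 0.104 per total count, with an exact 95% counting interval of 0.0531 to 0.202. That interval covers counting error only and leaves out the spread between libraries. It describes the same arm, let in by the same filter, so it adds no support for a difference. Among the 254 tested miRNAs, 46 had at least as many raw counts over the WT libraries as over the san:san libraries, although the san:san totals were 7.49 times as large.

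miR-93-3p, the passenger of miR-93-5p, was too low to test with all libraries. It had 24, 14 and 3 counts in san:san and 0, 2 and 4 in WT. Its levels overlapped, at 31 to 151 CPM in san:san and 0 to 145 CPM in WT, where the count of 0 allows up to 209 CPM.

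Among the 5 arms tested, 3 were higher, 1 was lower and 1 did not pass, beside 34.6% of all tested miRNAs called higher, 29.5% called lower and 64.2% called in either direction. A call was thus common in these libraries, and the lower arm, miR-25-5p, had to differ as given above. The CPM values did not overlap between genotypes for 4 of the 6 arms, and for 70.9% of all tested miRNAs. The arms' counts of higher and lower calls were the same with RLE factors, TMMwsp or total counts and without WT replicate 1. In that last setting miR-93-3p was tested too and did not pass (log2 0.02, edgeR adjusted p = 0.978). Over all miRNAs 88 were higher and 75 lower with TMM, whereas 49 were higher and 101 lower with total counts. With TMM the median log2 fold change of all tested miRNAs was 0.30. Relative to that median, miR-25-3p lay 0.75 higher, miR-93-5p 1.33 higher and miR-106b-3p 1.52 higher, and with total counts the same differences were 0.75, 1.31 and 1.51. For miR-25-5p the difference was -2.94 with TMM and -2.93 with total counts. A change of scaling shifts the fold changes and their median nearly alike, so this closeness was fixed in advance and is no check.

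**Figure D1:**
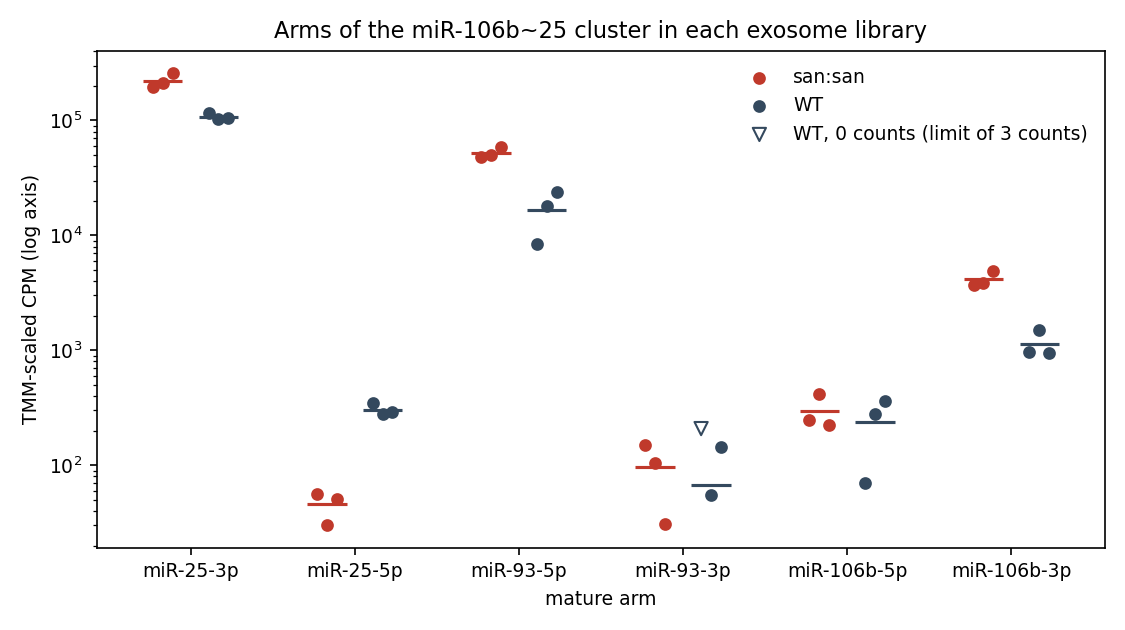
TMM-scaled CPM (log axis) of each arm in the 3 san:san libraries (red, left) and the 3 WT libraries (dark, right), with bars at the group means; the open triangle marks the limit of 3 counts in a library with 0 counts. miR-25-3p, miR-93-5p and miR-106b-3p are higher in every san:san library than in any WT library, miR-25-5p is lower in every one, and miR-93-3p and miR-106b-5p overlap.

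The order of the arms differed between genotypes only among the scarce ones. In both, miR-25-3p came first, miR-93-5p next and miR-106b-3p after it, with no overlap between neighbours. Below them in san:san came miR-106b-5p at 295 ± 103 CPM, miR-93-3p at 95.8 ± 60.9 CPM and miR-25-5p at 46.0 ± 14.1 CPM, the last pair overlapping (SD, n = 3 each). In WT the order was miR-25-5p at 305 ± 37.5 CPM, miR-106b-5p at 236 ± 151 CPM and miR-93-3p at 66.8 ± 73.1 CPM, and each of these overlapped with its neighbour.

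Together the 6 arms made up 21.1%, 22.1% and 24.8% of all miRNA counts in the san:san libraries and 14.5%, 15.2% and 16.6% in the WT libraries. The means were 22.7% ± 1.91 and 15.4% ± 1.08, a difference of 7.23 percentage points, without overlap. The 95% Wilson intervals of these shares had half-widths of 0.186 to 0.618 points and cover counting error only. miR-25-3p and miR-93-5p supplied nearly all of these counts in both genotypes.

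**Figure D2:**
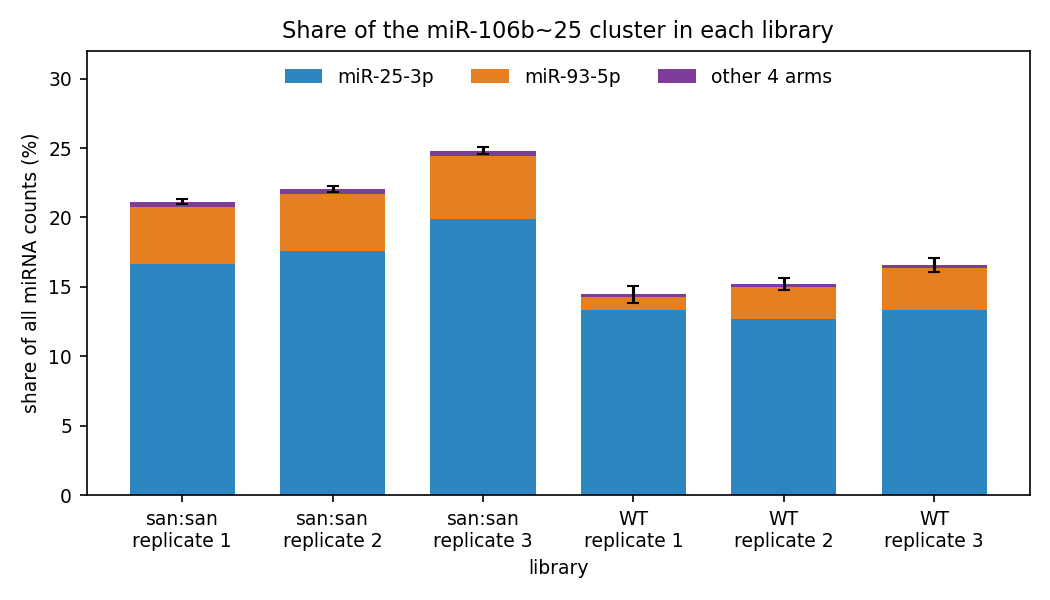
Share of all miRNA counts (%) taken by miR-25-3p, miR-93-5p and the other 4 arms, stacked for each library, with san:san on the left; whiskers are 95% Wilson intervals of the summed share. The 3 san:san libraries stand at 21.1% to 24.8% and the 3 WT libraries at 14.5% to 16.6%.

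Within the cluster the balance between arms also differed. miR-25-3p made up 78.7%, 79.7% and 80.2% of cluster counts in san:san and 92.2%, 83.5% and 80.4% in WT, so its share was lower in san:san although its level was higher. The gap between the highest san:san and the lowest WT library was smaller than the counting error of that WT library, whose 95% Wilson interval ran from 79.1% to 81.7%. miR-93-5p held 18.8% ± 0.694 of cluster counts in san:san and 13.2% ± 5.91 in WT, with overlap (SD, n = 3 each). Much of that spread was WT replicate 1, in which miR-93-5p was 6.72% of the cluster, and the difference of 5.59 points was 2.33 points without that library. The miR-25-3p difference was likewise -5.85 points with all libraries and -2.45 without it.

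The minor arms took 1.49% ± 0.0371 of cluster counts in san:san and 0.909% ± 0.278 in WT for miR-106b-3p, without overlap. For miR-25-5p the shares were 0.0167% ± 0.00585 in san:san and 0.242% ± 0.0308 in WT, also without overlap. With 3 libraries against 3, a two-sided exact permutation test cannot give p under 0.1. That exact test gave its smallest value for miR-25-3p, miR-25-5p and miR-106b-3p (adjusted p = 0.2 over the 6 arms). The exact permutation p was 0.2 for miR-93-5p, 0.4 for miR-106b-5p and 0.8 for miR-93-3p.

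Ratios between arms within a library do not depend on how libraries are scaled. There were 4.02, 4.27 and 4.40 reads of miR-25-3p for each read of miR-93-5p in san:san, against 13.7, 5.67 and 4.41 in WT. WT replicate 3 was thus within 0.01 of the highest san:san library, and WT replicate 1 stood apart. Reads of miR-25-3p per read of miR-106b-3p numbered 52.9, 54.9 and 52.6 in san:san and 119, 68.0 and 112 in WT, without overlap. The log2 ratio of miR-93-5p to miR-106b-3p averaged 3.66 ± 0.0728 in san:san and 3.79 ± 0.796 in WT, and overlapped (exact permutation p = 0.9). The log2 ratio of miR-93-5p to miR-106b-5p, its seed relative in the same transcript, was 7.52 ± 0.561 in san:san and 6.33 ± 0.513 in WT, with overlap (exact permutation p = 0.2). Of the 10 pairs among the 5 arms counted in every library, 6 did not overlap between genotypes, each with the smallest possible exact permutation p = 0.1 (adjusted p = 0.167), and 4 of those 6 involved miR-25-5p. Pairs of other miRNAs were not counted in this way. Taken singly, 70.9% of all tested miRNAs did not overlap in CPM, so the 6 pairs are not read as a trait of the cluster.

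The arm ratio of the miR-25 hairpin changed most among the cluster's hairpins. There were 3436, 7054 and 5014 reads of miR-25-3p for each read of miR-25-5p in san:san, against 332, 367 and 362.9 in WT. The log2 ratio of 5p to 3p, each arm given a pseudocount proportional to its library's size, was -11.9 ± 0.404 in san:san and -8.42 ± 0.0766 in WT (SD, n = 3 each). The difference of -3.45 ± 0.36 (SE) passed in limma across 49 hairpins (adjusted p = 5.10e-04). Of those hairpins 46.9% passed, of which the cluster supplied 1 of its 2 tested. In all, 16.3% had a lower 5p to 3p ratio in san:san and 30.6% a higher one, and only miR-328 (-6.58, adjusted p = 1.46e-04) and miR-23a (-5.88, adjusted p = 1.46e-04) fell further than miR-25. After them came miR-122 (-2.74, adjusted p = 0.0256) and miR-674 (-2.54, adjusted p = 0.0201). The 3p arm of miR-122 had 90 counts over san:san and 2 over WT, so its WT ratio depends on the pseudocount. The fall of miR-25-5p and the rise of miR-25-3p both enter the miR-25 ratio, and 41 reads of the 5p arm carry it. When every library was thinned to 12447 counts, the median count of miR-25-5p over 20 draws was 0.5, 0 and 0 in san:san and 5, 4 and 4.5 in WT.

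The miR-93 hairpin kept its 5p arm as the dominant one in all libraries. The read ratio of 5p to 3p was 320, 473 and 1898 in san:san, and 324 and 165 in WT replicates 2 and 3, while WT replicate 1 had 121 reads of the 5p arm and 0 of the 3p arm. The log2 difference of 0.69 ± 0.83 did not pass (limma adjusted p = 0.507). The miR-106b hairpin was dominated by the 3p arm instead, with 15.0, 9.35 and 21.7 reads of miR-106b-3p for each read of miR-106b-5p in san:san and 14.0, 5.40 and 2.60 in WT. It did not reach the minimum of 20 counts over both arms in WT replicate 1 and was not tested in limma with all libraries. Over all libraries the ratio of its arms overlapped between genotypes (exact permutation p = 0.2, adjusted p = 0.25 over 10 pairs). WT replicate 1, at 14.0, lay within the san:san range. With it left out, the san:san minus WT difference in the log2 5p to 3p ratio was -1.92 ± 0.54 (limma adjusted p = 0.0475 over 73 hairpins). Each remaining WT library had 10 reads of miR-106b-5p, so this value rests on few reads and on leaving that library out. Its paralog in the miR-17-92 cluster, miR-17, had the opposite dominance, with 31.9 to 75.8 reads of the 5p arm for each 3p read in san:san and 37.4 to 98.5 in WT (difference -0.07 ± 0.51, limma adjusted p = 0.907).

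**Figure D3:**
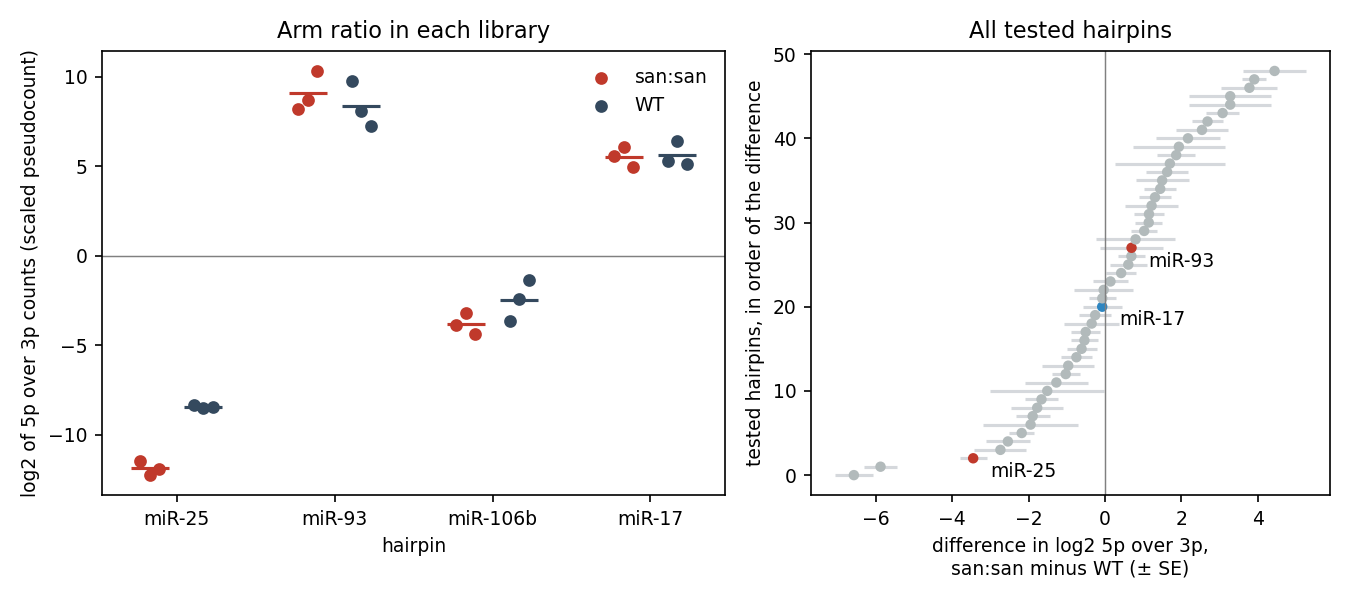
Left, log2 of 5p over 3p counts for the 3 hairpins of the cluster and miR-17 in each san:san (red) and WT (dark) library, with bars at the means; right, the san:san minus WT difference in that ratio (± SE) for the 49 tested hairpins in order. The miR-25 hairpin lies near -11.9 in san:san and -8.42 in WT, and its difference of -3.45 is the third lowest.

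The guides were also set within their seed families, since miRNAs with 1 seed pair with largely the same messenger RNA sites. The relatives counted here are given with the seed in capitals. First come the relatives of miR-25-3p.
miR-92a-3p: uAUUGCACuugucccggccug
miR-92b-3p: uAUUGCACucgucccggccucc
miR-32-5p: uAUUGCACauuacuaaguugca
miR-363-3p: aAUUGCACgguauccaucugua
The relatives of miR-93-5p and miR-106b-5p follow.
miR-17-5p: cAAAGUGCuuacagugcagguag
miR-20a-5p: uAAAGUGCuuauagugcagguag
miR-20b-5p: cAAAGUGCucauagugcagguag
miR-106a-5p: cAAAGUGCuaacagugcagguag
miR-25-3p matches miR-92a-3p at 18 of 21 positions, and miR-93-5p matches miR-17-5p at 19 of 23. How the authors assigned reads between such relatives is not given in the sources used here, so values of single relatives carry that uncertainty.

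miR-25-3p accounted for 84.5%, 84.9% and 86.9% of the 5 AUUGCAC guides in san:san and for 79.2%, 76.4% and 77.0% in WT. The genotypes did not overlap (exact permutation p = 0.1, adjusted p = 0.157 over 11 shares). miR-92a-3p, which comes from both paralogous clusters, made up 14.1% ± 1.27 of the family in san:san and 21.6% ± 1.48 in WT (SD, n = 3 each). Its own level did not pass the test (log2 0.28 ± 0.18, edgeR adjusted p = 0.182), and its fitted value was -0.30 with total counts. The scarce miR-363-3p had 78 counts over san:san and 3 over WT (log2 2.37 ± 0.81, adjusted p = 0.0199; 1.78 and 0.0816 with total counts). miR-32-5p had 28 counts over san:san and 19 over WT (log2 -1.76 ± 0.49, adjusted p = 0.00617). The filter on low counts admitted miR-363-3p through san:san libraries alone and miR-32-5p through WT libraries alone, so both had to differ and their p-values support nothing. miR-92b-3p did not pass (log2 -0.26 ± 0.23, adjusted p = 0.326), except as lower with total counts (-0.85, adjusted p = 0.00558).

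miR-93-5p accounted for 81.9%, 80.5% and 80.3% of the 6 AAAGUGC guides in san:san and for 71.6%, 72.9% and 74.5% in WT, again without overlap (exact permutation p = 0.1, adjusted p = 0.157). WT replicate 1 was close to the other WT libraries on this scale, although the family as a whole took 1.36% of its counts, against 3.08% and 4.06% in WT replicates 2 and 3 and 5.05% to 5.62% in san:san. miR-17-5p, the second most abundant of these guides, made up 16% ± 0.729 in san:san and 23.1% ± 2.58 in WT. miR-106b-5p supplied 0.465% ± 0.185 of the family in san:san and 0.949% ± 0.310 in WT, with overlap (exact permutation p = 0.2).

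**Figure D4:**
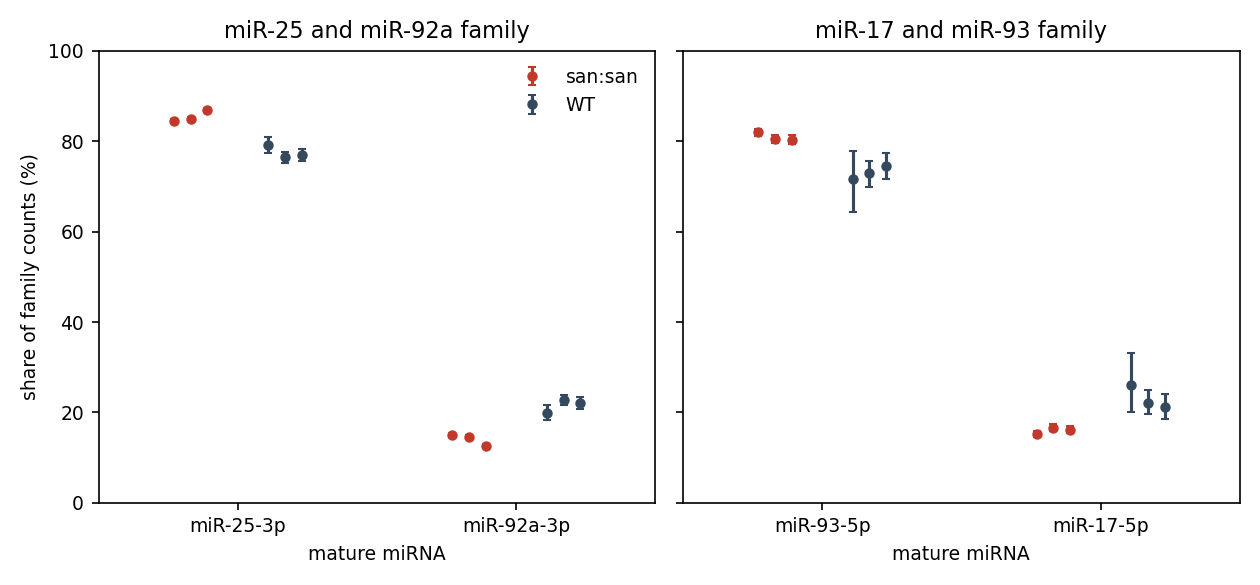
Share (%) of the counts of a seed family taken by its 2 most abundant guides in each san:san (red, left) and WT (dark, right) library, with 95% Wilson intervals. miR-25-3p and miR-93-5p are above 80% in all san:san libraries and below it in all WT libraries, and miR-92a-3p and miR-17-5p are lower in san:san.

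In the paralogous miR-17-92 and miR-106a-363 clusters some arms were higher in san:san. Of their 16 arms in the table, 11 were deep enough to test, of which 6 were higher, 0 lower and 5 did not pass, beside the 34.6% of all tested miRNAs called higher. One of the 6, miR-363-3p, entered the test through san:san alone, as given above. With total counts 3 of the 11 were higher and 0 lower, and the fitted values of miR-18a-5p (-0.17) and miR-92a-3p (-0.30) fell below 0. With TMM their median log2 fold change was 1.08, against 0.30 over all tested miRNAs. miR-18a-3p (log2 2.27 ± 0.38, edgeR adjusted p = 1.59e-04) and miR-19a-3p (2.21 ± 0.31, adjusted p = 2.83e-05) rose, as did miR-19b-3p (1.53 ± 0.27, adjusted p = 2.15e-04). miR-17-5p rose by 0.99 ± 0.25 (adjusted p = 0.00336) and miR-20a-5p by 1.06 ± 0.35 (adjusted p = 0.0156), but with total counts neither passed (0.39, adjusted p = 0.214, and 0.46, adjusted p = 0.264). miR-106a-5p (0.82 ± 0.40, adjusted p = 0.0880), miR-20b-5p (1.41 ± 0.61, adjusted p = 0.0558), miR-17-3p (1.08 ± 0.68, adjusted p = 0.180) and miR-18a-5p (0.43 ± 0.51, adjusted p = 0.461) did not pass. The other 5 arms in the table were below the filter, with 22 counts over san:san and 1 over WT for miR-20a-3p, 10 and 1 for miR-19b-1-5p, 0 and 4 for miR-92a-1-5p, 4 and 0 for miR-18b-5p, and 7 and 0 for miR-18b-3p.

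**Figure D5:**
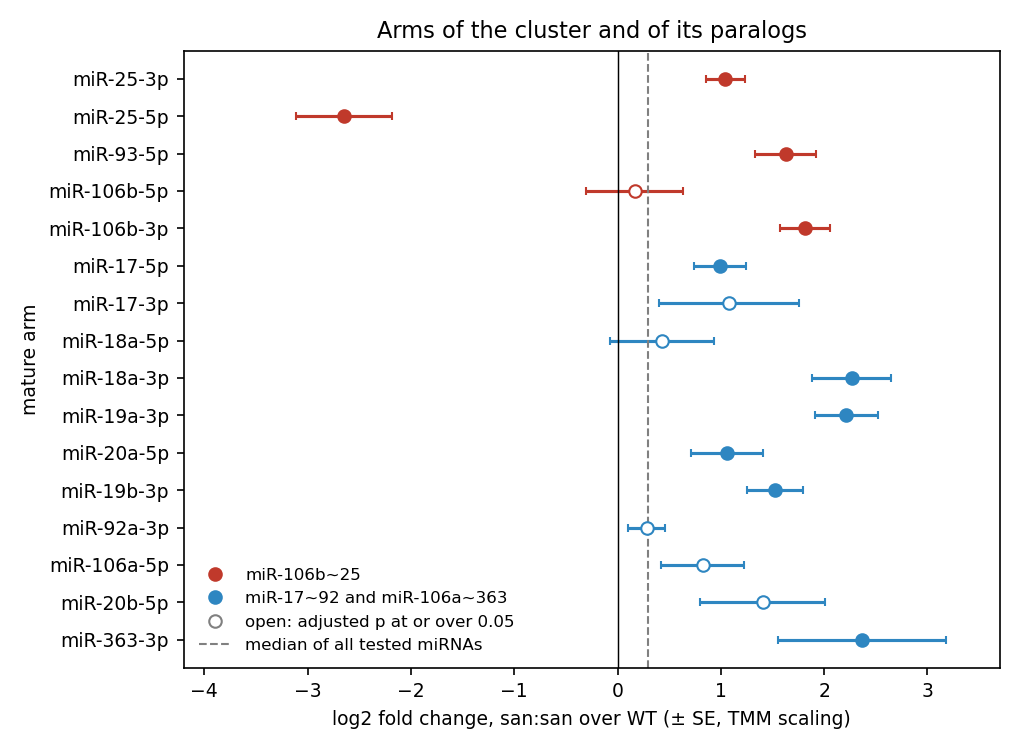
Log2 fold change, san:san over WT (± SE, TMM scaling), of the tested arms of the miR-106b-25 cluster (red) and its paralogs (blue); open symbols did not pass at 0.05, and the dashed line is the median of all 254 tested miRNAs, 0.30. With TMM, miR-25-5p at -2.64 is the only tested arm of these clusters below 0; with total counts miR-106b-5p, miR-18a-5p and miR-92a-3p are below it too.

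The profiles nearest to those of the cluster were found by the root mean square distance between centred log2 CPM over the 6 libraries. Nearest to miR-25-3p were miR-15b-3p (distance 0.115), miR-484 (0.123) and miR-192-5p (0.126), which were higher in san:san by log2 1.16, 1.22 and 1.09. Nearest to miR-93-5p were miR-186-5p (0.140), miR-19b-3p (0.155) and miR-224-5p (0.184). By this measure miR-93-5p was further from miR-25-3p, its neighbour in the transcript, at 0.616, and ranked 104 among the tested miRNAs by nearness to it. Nearest to miR-25-5p were miR-690 (0.289), miR-320-3p (0.293) and miR-125b-5p (0.319), all lower in san:san, by -2.59, -2.21 and -1.90 on the log2 scale. These distances describe 6 libraries that share 1 contrast and its difference in depth.

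Some markers of other cells were higher in san:san, as were miR-25-3p, miR-93-5p and miR-106b-3p. The same held for 4 of the 5 macrophage and myeloid miRNAs tested, beside 34.6% of all tested miRNAs. Of 5 erythroid miRNAs, 4 were called higher, beside 34.6% of all tested miRNAs, and the list took 15.6% to 17.9% of san:san counts and 3.84% to 6.25% of WT counts. In it miR-486a-5p and miR-486b-5p have identical counts and make up 2 of the 4 calls. Both rows enter these shares, which would be smaller with the identical counts entered once. The lymphocyte miRNA miR-150-5p took 1.38% to 1.92% in san:san and 0.409% to 0.492% in WT. Both endothelial miRNAs, arms of miR-126a, were called higher, with 3.37% to 6.96% of san:san counts and 1.82% to 3.69% of WT counts. The 2 liver miRNAs took 0.439% to 0.600% in san:san and 0.501% to 0.707% in WT. The one called higher, miR-122-3p, had 90 counts over san:san and 2 over WT and passed the filter through san:san alone, so it had to differ. None of these markers was at 0 in a whole genotype. The 6 epithelial miRNAs held at most 0.0127% of a san:san library and 0.0138% of a WT library, with 5 of them at 0 in WT. Of the muscle miRNAs counted, miR-133a-3p was at 0 in WT, and together they held at most 0.00747% of a san:san library and 0.0312% of a WT library. The part of such cells in the cluster's values was not tested, nor was that of depth, beyond thinning every library to 12447 counts. In thinned libraries the median log2 fold change over 20 draws was 0.72 for miR-25-3p (median edgeR adjusted p = 0.00104). It was 1.28 for miR-93-5p (0.00218) and 1.52 for miR-106b-3p (3.08e-04). The cluster's share difference was 7.23 points there.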

How the data were processed

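Small RNA libraries of exosomes from 3 Roquin-1 san:san and 3 WT bone marrow-derived macrophage samples were analysed. Groups and replicate numbers come from the sample titles. The authors deposited a table of raw counts per mature miRNA; reads were placed on mm9, per the submitters' processing notes. Libraries followed standard Illumina miRNA procedures after Trizol extraction, per the labels' protocols, which also name an mRNA kit. The aligner, the trimming and the miRNA annotation are not given in the sources used. The deposited scaled values of each sample were not used.

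The members and lists were chosen with earlier results of these data known. All arms of the 3 hairpins, their seed relatives and paralogs with at least 10 counts, the 3 nearest profiles and up to 5 hairpins with the largest fall in arm ratio were to be named. Of those hairpins, 5 are given.

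Genotypes were compared with the quasi-likelihood test of edgeR 4.0.16 in R 4.3.3, after filterByExpr (minimum count 10), with TMM scaling, robust dispersions and genotype as the only term, Benjamini-Hochberg adjusted over 254 miRNAs at a threshold of 0.05. These held 98.2% to 99.3% of each library's counts. Arm ratios used limma 3.58.1 on log2 of 5p over 3p, with pseudocounts proportional to the totals (mean 1), where the arms summed to 20 counts or more in each of the libraries. Shares and ratios used two-sided exact permutation tests (scipy 1.17.1) and Wilson intervals. A count of 0 was given a limit of 3 counts. Profiles used log2 CPM with a prior count of 2. The procedures were tested on simulated counts. Alternatives were total counts, RLE, TMMwsp, totals that left out the top 5 miRNAs, other filters, DESeq2 1.42.0, merged identical rows, thinning, a replicate block and leaving out each library. The totals without the top 5 miRNAs were followed by TMM, so that alternative changed mainly the filter and could hardly change the scaling. Sequences are from RefSeq (GRCm38.p6), in which all 6 arms matched, and the host gene from GENCODE M21.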

Additional observations from a re-analysis of the deposited data

How the results depend on the processing

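The log2 fold changes of miR-25-3p, miR-93-5p and miR-106b-3p kept their direction and their calls in all 16 alternatives each. That of miR-25-5p did so in the 14 that gave a value. This arm entered the main test through WT libraries alone, so its kept calls under that filter add no support. miR-25-5p could not be tested in thinned libraries or with at least 10 counts in every library, and miR-106b-5p neither. For miR-25-3p the smallest value was 0.46 (edgeR adjusted p = 0.0148) with total counts, and for miR-93-5p 1.02 (0.00898). miR-106b-5p, which never passed, turned to -0.076 with RLE factors (adjusted p = 0.908), -0.42 with total counts (0.472), -0.13 without san:san replicate 2 (0.798) and -0.17 without WT replicate 1 (0.728). miR-93-3p, tested without a filter as an alternative added after seeing the data, stood at log2 0.55 ± 0.73 (adjusted p = 0.627).

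Over all miRNAs, 88 were higher and 75 lower. With total counts 49 were higher and 101 lower, and the median log2 fold change of all tested miRNAs was -0.29, against 0.30 with TMM. With at least 10 counts in every library 35 were higher and 31 lower among 103 tested, and in thinned libraries 38 and 44 among a median of 132. Leaving out each library gave 68 to 90 higher and 62 to 85 lower miRNAs, miR-25-3p ranged from 0.87 to 1.14, miR-93-5p from 1.21 to 1.95, miR-106b-3p from 1.64 to 2.0, miR-25-5p from -2.86 to -2.38 and miR-106b-5p from -0.17 to 0.48. The cluster's share difference ranged from 6.16 to 8.0 points with a library left out, and was 8.29 points with identical rows merged. The miR-93 arm ratio passed with a fixed pseudocount of 1 (1.93, limma adjusted p = 0.0195), a pseudocount that weighs more in a shallow library. The miR-106b arm difference, -1.33 with no limma test in all libraries, was -1.92 without WT replicate 1. The miR-25 arm difference lay between -3.58 and -3.22 with a library left out and was -2.46 in thinned libraries. In those the median count of miR-25-5p was 0.5, 0 and 0 in san:san, so the thinned value depends on the pseudocount.

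The deviations of same-numbered samples had correlations of 0.103, -0.0795 and 0.258, not all above 0.1, so the numbers were not taken as pairs. With a replicate block miR-25-3p was at 1.03, miR-93-5p at 1.73, miR-106b-3p at 1.85, miR-25-5p at -2.73 and miR-106b-5p at 0.25, and no call of an arm changed.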
